A study of Mus musculus with 2 samples.

Results

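Chemokines are small secreted proteins that guide leukocytes, and their receptors are seven-pass proteins on the cell surface. The genes described here encode the chemokine ligands and receptors measured in Treg cells, CD4 T cells of regulatory type that hold back immune responses. They were taken by name from the annotation of the array: symbols of the Ccl, Cxcl, Ccr, Cxcr and Ackr series, Xcl1, Xcr1, Cx3cl1 and Cx3cr1. This gave 54 genes on 86 probe sets, of 18193 genes in all, with 33 ligand and 21 receptor genes. The cells were CD4+CD25hi Treg cells of the spleen, from mice aged 6 to 8 weeks, enriched for CD4 with magnetic beads and sorted by flow cytometry. One group was wild type littermates and the other was miR-125a KO, a deficiency of the microRNA miR-125a. RNA of several mice of a genotype was pooled in equal amounts, and each pool was read on 1 Affymetrix Mouse Genome 430 2.0 array. The number of mice in a pool, the kind of allele and the cells in which the gene is lost are not given in the sources used here, and no agent was given to either group in the labels. Having 1 pool for each genotype, the study has no replicate here, so no test and no p-value is given, and every difference below is one between these 2 RNA pools. In RNA from many cells, fewer cells of a type and less RNA per cell cannot be told apart.

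Chemokine receptors couple to inhibitory G proteins and steer a cell up a gradient of ligand, and the pattern of receptors on a T cell goes with its destination. Ccr7 brings T cells into lymph nodes and the T zones of the spleen, Cxcr5 into B cell follicles, Cxcr3 to sites of type 1 inflammation, Ccr6 to mucosa and type 17 inflammation, and Ccr4 and Ccr8 to skin and to tissues rich in Treg cells. Activated T cells also release chemokines of their own, among them Ccl1, Ccl3, Ccl4, Ccl5, Ccl20 and Xcl1. Atypical receptors, named Ackr, bind chemokines without G protein signals and remove them.

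The microRNA missing from the miR-125a KO mice is given here with others that share its seed, bases 2 to 8, the stretch that pairs with target messages. Sequences are RefSeq's, written 5′ to 3′ with the seed in capitals. The mature miR-125a-5p lies at chr17:17830817-17830840 of GRCm38.p6, plus strand. The seed of miR-125b-5p and miR-351-5p was the same, and these genes lie on other chromosomes.
miR-125a-5p: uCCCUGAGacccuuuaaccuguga
miR-125b-5p: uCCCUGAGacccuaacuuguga
miR-351-5p: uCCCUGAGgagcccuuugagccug

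Signals are MAS5 values on a linear scale, on which the trimmed mean of both arrays was 500.003. A gene was read from its probe set of highest mean signal. A minimum of 62.5 was set on the mean signal, which is the median over all probe sets, and left 10583 genes and 25 of the 54 chemokine genes, 13 ligands and 12 receptors. Ratios were taken as miR-125a KO over wild type after adding 16.3 to both signals and are given as log2, and folds are on that scale too. The only repeat measurement is that of a gene by several probe sets. The value called probe-set SD stands for the spread of a single log2 ratio of miR-125a KO over wild type. It was taken from genes of like signal, by how far the ratios of a gene's 2 brightest probe sets differed. The spread of these differences was scaled down to that of a single ratio. The probe-set SD ran from 0.38 for the dimmest to 0.16 for the brightest genes, and it leaves out variation between mice. All 9 measured genes of a list of T cell and Treg identity were past the minimum, 4 with a ratio above 0 and 5 below. Of these, Cd4 and Il2ra, which encodes CD25, are those used for the sort. Cd4 was at 715 in wild type and 641 in miR-125a KO cells, and Il2ra at 15390.4 and 18551. Foxp3, the Treg transcription factor, was at 1631 and 694, a log2 ratio of -1.21 with a probe-set SD of 0.20 from 1 probe set. It was the 1 of the 9 at least 2-fold lower, where 1.18% of all genes were.

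No chemokine or receptor gene past the minimum differed by 2-fold or more, 0 of 25 higher and 0 of 25 lower in miR-125a KO cells, where 2.26% of all 10583 genes differed by as much, 1.08% being higher and 1.18% lower. With no minimum, 3 of all 54 were at least 2-fold higher, where 4.44% of all genes were, and 0 were as much lower, where 3.18% were. The 3, Cxcl5, Cxcl12 and Cxcl17, had mean signals below the minimum. The other probe sets of Cxcl12, also below the minimum, had log2 ratios of 0.68 and -1.20, so its probe sets disagree in sign. At 1.5-fold, 7 of the 25 were lower, or 28%, where 5.77% of all genes were, and 0 were higher, where 5.01% of all genes were, so that 10.8% of all genes passed this fold either way. The 7 were the ligands Ccl20, Ccl3, Xcl1, Ccl1 and Ccl5 and the receptors Cxcr3 and Ccr6. In all, 15 of the 25 genes had a ratio below 0 and 10 above, where 49.0% of all genes were below 0. The median log2 ratio was -0.05, beside 0.01 for all genes past the minimum. It was -0.14 for the 13 ligands and -0.04 for the 12 receptors. The genes lay between -0.94 for Cxcr3 and 0.52 for Ccl17. Of the 25, 17 lay farther from 0 than their probe-set SD, as did 4562 of all 10583 genes.

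**Figure D1:**
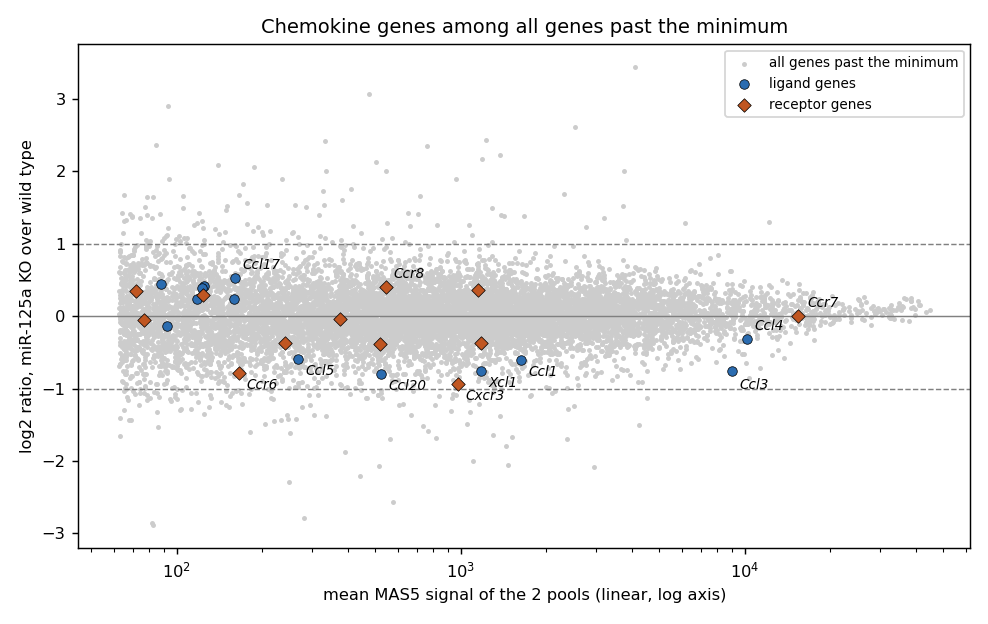
Each grey point is 1 of the 10583 genes past the minimum, by its mean MAS5 signal over both pools (horizontal, log axis) and its log2 ratio of miR-125a KO over wild type (vertical). Blue circles are the 13 ligands and orange diamonds the 12 receptors; all lie between the dashed lines at 2-fold, and the lowest is Cxcr3 at -0.94.

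The ligands named above as released by activated T cells had lower signals in miR-125a KO cells. Their log2 ratios ran from -0.31 for Ccl4 to -0.80 for Ccl20. They were grouped with earlier results of these data known, and 6 of the 13 ligands past the minimum had ratios above 0. Ccl3, the chemokine MIP-1 alpha that attracts monocytes and T cells, had a signal of 11306 in wild type and 6701 in miR-125a KO cells. This was 1.69-fold lower, with a log2 ratio of -0.75 and a probe-set SD of 0.16. Ccl4, MIP-1 beta, a relative of Ccl3, was at 11317 and 9109, a log2 ratio of -0.31 with the same probe-set SD. The genes of Ccl3 and Ccl4 lie next to each other on chromosome 11, with 0 genes between them in the RefSeq table, and their ratios differed by 0.44, where the probe-set SD of such a difference is 0.23.

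Xcl1, lymphotactin, which attracts the dendritic cells that bear Xcr1, was at 1486 in wild type and 876 in miR-125a KO cells, with a log2 ratio of -0.75 and a probe-set SD of 0.20. Ccl5, or RANTES, an attractant of T cells and monocytes, was at 325 and 210.2, a ratio of -0.59 with a probe-set SD of 0.32. Ccl1, the ligand of Ccr8, was at 1970.3 and 1291, a ratio of -0.60 with a probe-set SD of 0.21. These 5 ligands, from Ccl3 to Ccl1, were each lower by more than their probe-set SD. Either way, 4562 of all 10583 genes past the minimum lay beyond theirs. Each was read by 1 probe set, so none had a second reading on the same array.

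Ccl20, the ligand of Ccr6, was at 670 in wild type and 378 in miR-125a KO cells, 1.74-fold lower with a log2 ratio of -0.80 and a probe-set SD of 0.27. Its receptor Ccr6 was at 214 and 118, 1.72-fold lower with a ratio of -0.78 and a probe-set SD of 0.38. Ligand and receptor of this type 17 axis were thus both lower, and both had 1 probe set.

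**Figure D2:**
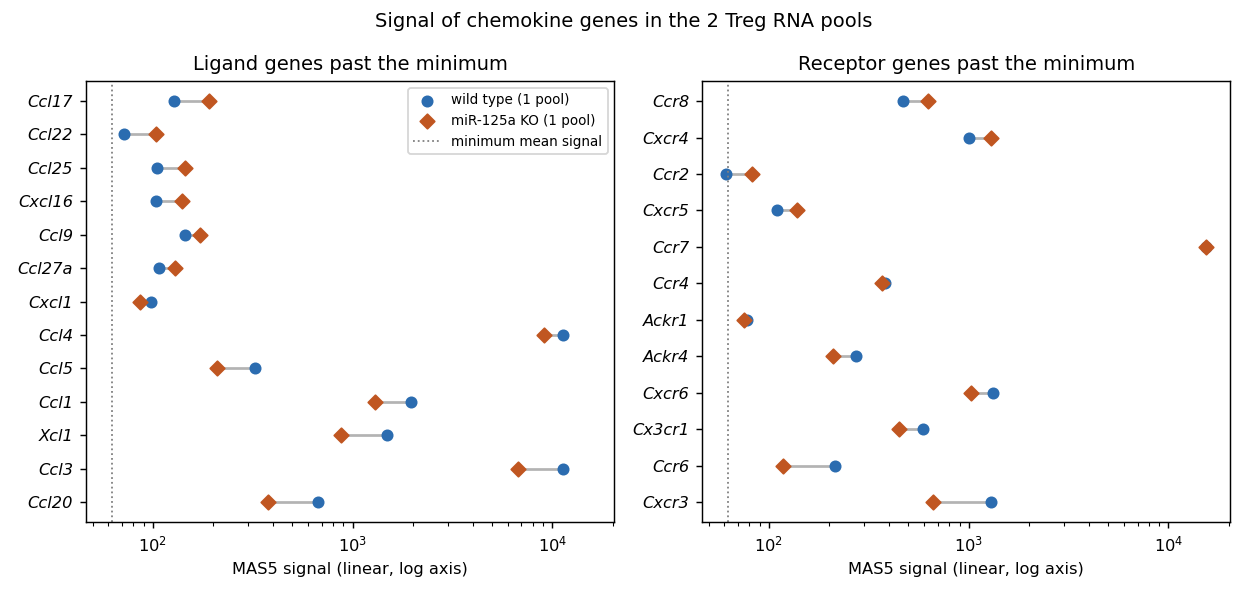
Each row is 1 ligand (left) or receptor gene (right) past the minimum, with its MAS5 signal on a log axis in the wild type pool (blue circle) and the miR-125a KO pool (orange diamond), 1 array each; the dotted line is the minimum mean signal of 62.5. The lower rows, such as Ccl20 at 670 against 378 and Cxcr3 at 1287 against 665, have the diamond to the left of the circle, and for Ccr7 both symbols coincide.

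Several of these ligands are also made by CD8 T and NK cells, and markers of those cells were measured beside them. Of the 7 measured markers, 6 were past the minimum, with a median log2 ratio of -0.36, and their summed signal was 9639 in wild type and 6568 in miR-125a KO cells. The sum was made up mostly of Klrd1, a receptor subunit of NK and activated T cells, at 7919 and 5065. Cd8a, a chain of CD8, was at 435 and 295, but log2 ratios of its other probe sets past the minimum ran from -0.56 to 0.15. Cd8b1 and Eomes were lower, at 438 and 332 and at 636 and 501. The NK receptors Klra7 and Klre1 were higher, at 193 in miR-125a KO against 94.3 in wild type cells and 163 against 104. Ncr1, a defining NK receptor, was at 14.0 and 18.0, around the pseudocount. The part of these cells in the ligand ratios was not tested.

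The receptor with the lowest ratio was Cxcr3, which binds Cxcl9, Cxcl10 and Cxcl11 and marks T cells of type 1 responses. It was at 1287 in wild type and 665 in miR-125a KO cells, 1.91-fold lower with a log2 ratio of -0.94 and a probe-set SD of 0.23. Its ligands Cxcl9, Cxcl10 and Cxcl11 were below the minimum, with signals from 11.1 to 34.5 on both arrays. Cxcr6, a receptor of tissue-resident and effector T cells, was at 1328 and 1025, a ratio of -0.37 with a probe-set SD of 0.20. Its second probe set, at 658 and 507, also had a ratio of -0.37, so both readings of Cxcr6 were lower by like amounts. Cxcl16, the ligand of Cxcr6, went the other way, at 104 and 141 with a ratio of 0.38 and a probe-set SD of 0.38. Of the 7 genes of type 1 receptors and their ligands past the minimum, 6 were below 0, where 49.0% of all genes were, 4 were at least 1.5-fold lower, where 5.77% of all genes were, and the median ratio was -0.59 beside 0.01 for all genes.

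The 5 genes of the axes of type 2 helper and Treg cells past the minimum had a median ratio of 0.40, with 3 above 0 and 2 below. Ccr8, a receptor of Treg and type 2 helper cells, was at 467 in wild type and 623 in miR-125a KO cells, a ratio of 0.40 with a probe-set SD of 0.27. Its ligand Ccl1 had the ratio of -0.60 given above, so ligand and receptor of this axis had opposite signs. Ccr4, the other receptor of these cells, was at 379 and 369.8, a ratio of -0.04 within its probe-set SD of 0.27. The ligands of Ccr4, Ccl17 and Ccl22, had the highest ratios of the 25 genes. Ccl17, or TARC, was at 128 and 192, with a ratio of 0.52, and Ccl22, or MDC, at 72.2 and 104, with 0.45. Both were dim, with a probe-set SD of 0.38, and their genes lie close together on chromosome 8, with 3 genes between them. Ccr3, the eotaxin receptor, was at 2.54 and 2.65, near the lowest value of the arrays.

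Dendritic cells are a known source of Ccl17 and Ccl22, and markers of macrophages, monocytes and dendritic cells were measured beside them. Of 12 such markers measured, 4 were past the minimum, each with a ratio below 0 and a median of -0.70, and the summed signal of the 12 was 843 in wild type and 562 in miR-125a KO cells. The 4 were Fcer1g, at 226 and 103, Cd68, at 166 and 87.4, Csf1r, at 159 and 126, and Itgax. The dendritic cell marker Itgax was at 79.7 and 47.6. It passed the minimum, which was set on the mean of both arrays, through its wild type signal. Its miR-125a KO signal was below that minimum, whereas Fcer1g, Cd68 and Csf1r were above it on both arrays. The 8 below the minimum went both ways. Higher in miR-125a KO cells were Lyz2, at 30.8 and 61.0, Flt3, at 25.5 and 27.7, Siglech, at 16.7 and 19.2, and Itgam, at 1.08 and 6.86. Lower were Cd209a, at 37.2 and 4.65, Fcgr3, at 42.7 and 28.3, Adgre1, at 44.7 and 36.8, and Cd14, at 14.2 and 13.5. Itgam and Cd14 were at or below the pseudocount on both arrays. The part of these cells in the ratios of Ccl17 and Ccl22 was not tested.

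**Figure D3:**
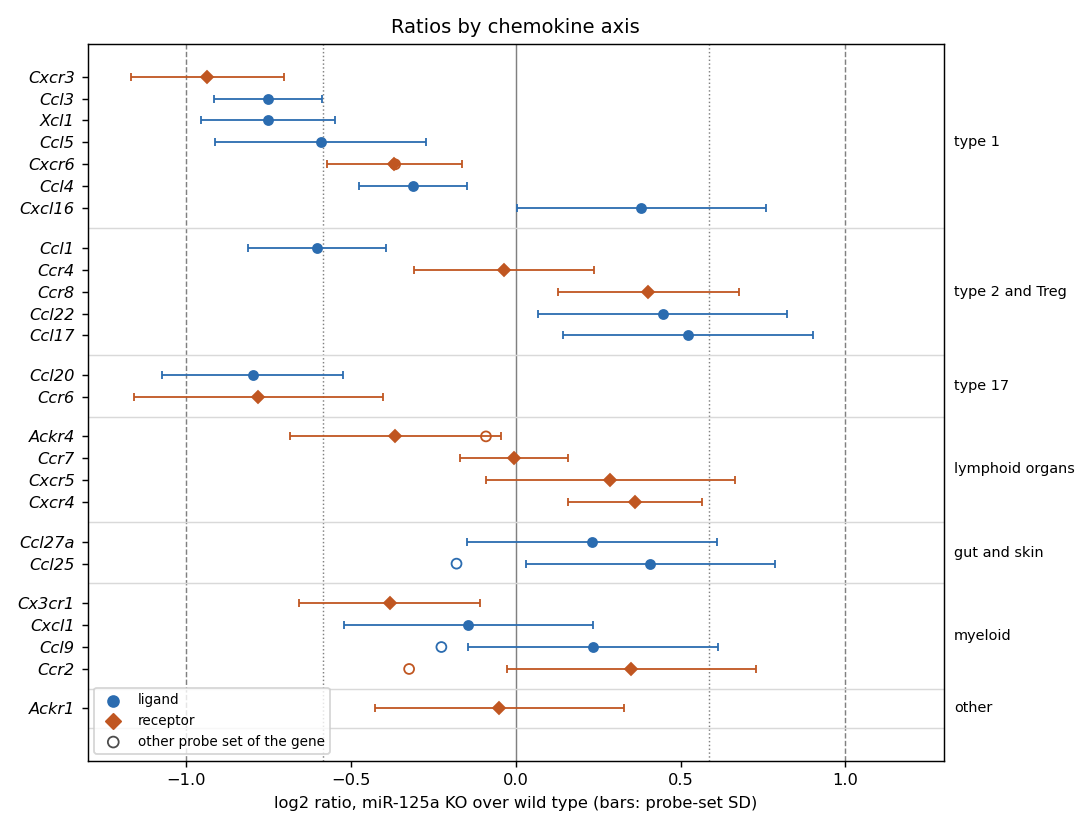
Log2 ratios of miR-125a KO over wild type for the 25 genes past the minimum, in the groups named at the right, with bars for the probe-set SD, filled circles for ligands, filled diamonds for receptors and open circles for other probe sets of a gene past the minimum. Dotted lines are 1.5-fold and dashed lines 2-fold; 6 of 7 type 1 genes and both type 17 genes lie left of 0, and the open circles of Ccl25, Ccl9 and Ccr2 lie on the other side of 0 from the filled symbols.

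Receptors that place T cells in lymphoid organs were close to equal or somewhat higher. Ccr7 was at 15481 in wild type and 15429 in miR-125a KO cells, a log2 ratio of -0.005 with a probe-set SD of 0.16. Cxcr4, the receptor of Cxcl12 that holds cells in marrow and lymphoid tissue, was at 1008 and 1299, a ratio of 0.36 with a probe-set SD of 0.20. Cxcr5 was at 109.9 and 138, a ratio of 0.29 within its probe-set SD of 0.38. Cxcr5 is also borne by B cells; of 7 measured B cell markers 1, Cd79b, was past the minimum, at 229 and 205, and the sum of the 7 was 391 in wild type and 386 in miR-125a KO cells. The ligand of Cxcr5, Cxcl13, was below the minimum at 21.6 and 43.1, as was the ligand of Cxcr4, Cxcl12, at 5.89 and 37.2.

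Among receptors of monocytes and effector cells, Cx3cr1, the fractalkine receptor, was at 593 in wild type and 451 in miR-125a KO cells, a ratio of -0.38 with a probe-set SD of 0.27. Its other probe set, at 61.3 and 44.5 and under the minimum, gave -0.35. The genes of Cx3cr1 and Ccr8 lie close together on chromosome 9, with 1 gene between them, and their ratios were 0.79 apart with opposite signs. Ccr2, a receptor of inflammatory monocytes and effector T cells, was at 61.0 and 82.2, a ratio of 0.35. Its second probe set past the minimum had a ratio of -0.32, so the arrays give no direction for Ccr2. The same held for Ccl9, at 145 and 173 with ratios of 0.23 and -0.23 from its probe sets, and for Ccl25, at 105 and 145 with 0.41 and -0.18. Ccl9 is a myeloid chemokine, and Ccl25 is the ligand of the gut homing receptor Ccr9. In all, 5 genes had more than 1 probe set past the minimum, and the signs agreed for 2 of them, Cxcr6 and Ackr4.

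The atypical receptor Ackr4, which removes Ccl19, Ccl21 and Ccl25, was at 274 in wild type and 209 in miR-125a KO cells, a ratio of -0.37 with a probe-set SD of 0.32, and its second probe set had -0.09. Ackr1, which binds many chemokines on erythroid cells and venules, was at 78.2 and 74.9, a ratio of -0.05. Of the dim ligands, the skin chemokine Ccl27a was at 107 and 129, with 0.23, and the neutrophil attractant Cxcl1 at 97.6 and 86.8, with -0.14, both within the probe-set SD of 0.38.

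The other 29 genes were below the minimum, with signals from 1.04 to 76.5, and no ratio is drawn from them. They were 20 ligands and 9 receptors. For 3 of them, 1 array was past the minimum. Ccl28, a mucosal ligand, was at 76.5 in wild type and 46.6 in miR-125a KO cells, Ccr1 at 70.3 and 51.0, and Cxcl17, a mucosal chemokine, at 12.1 and 65.6. Ccr9 was at 9.37 and 23.8, Ccr10 at 27.6 and 20.7, Cxcr2 at 8.11 and 12.7 and Xcr1 at 25.6 and 33.9. Ccr1l1, a gene related to Ccr1, was at 7.61 and 12.4. Ackr2 was at 58.1 and 49.0, and Ackr3 at 1.20 and 14.1. Cxcr1 was not analysed here.

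The 300 bases around the start of the genes that were lower were searched for motifs, as these genes went the same way. RefSeq promoters, 250 bases before and 50 after the start, were found for 6 of the 7 lower genes, all but Ccl5, with 2 starts for Ccr6, and for 20 of the 25. Searched on both strands were the kappaB consensus, bound by NF-kappaB factors, the AP-1 site TGANTCA and the T-box half-site TCACACC. A kappaB match was found in 3 of 7 promoters of the lower genes, in 3 of 17 promoters of the other genes past the minimum and in 8.46% of all 32851 promoters. A T-box match was found in 2 of the 7, 1 of the 17 and 3.98% of all, and an AP-1 match in 0 of the 7, 3 of the 17 and 7.81% of all. The 4 promoters of lower genes with a match are shown, 5′ to 3′ along the gene, with the matches in capitals. That of Ccl20 holds a kappaB match 80 bases before the start and a T-box match 168 bases before it. Those of Ccl1 and Ccr6 each hold 2 overlapping kappaB matches that cover nearly the same bases. They begin 196 and 195 bases before the start in Ccl1, and 81 and 80 in Ccr6. That of Xcl1 holds a T-box match 188 bases before it. No match overlapped one of another motif in these 4. The promoters of Ccl3 and Cxcr3 and the one at the other start of Ccr6, chr17:8235793-8236092, held no match. A match is a description of the sequence and not a bound site.
Ccl20 (GRCm38.p6, chr1:83116516-83116815, plus strand): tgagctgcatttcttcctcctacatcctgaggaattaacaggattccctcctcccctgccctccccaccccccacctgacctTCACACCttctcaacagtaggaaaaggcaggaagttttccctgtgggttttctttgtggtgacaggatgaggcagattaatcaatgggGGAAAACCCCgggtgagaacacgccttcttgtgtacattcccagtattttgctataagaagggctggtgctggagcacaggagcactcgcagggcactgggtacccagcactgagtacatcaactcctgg
Ccl1 (GRCm38.p6, chr11:82179763-82180062, minus strand): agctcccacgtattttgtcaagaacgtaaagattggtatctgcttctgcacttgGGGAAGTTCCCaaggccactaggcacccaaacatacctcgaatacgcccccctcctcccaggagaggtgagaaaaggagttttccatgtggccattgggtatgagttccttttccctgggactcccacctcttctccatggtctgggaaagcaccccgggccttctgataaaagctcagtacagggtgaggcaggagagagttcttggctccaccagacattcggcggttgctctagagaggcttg
Ccr6 (GRCm38.p6, chr17:8242276-8242575, plus strand): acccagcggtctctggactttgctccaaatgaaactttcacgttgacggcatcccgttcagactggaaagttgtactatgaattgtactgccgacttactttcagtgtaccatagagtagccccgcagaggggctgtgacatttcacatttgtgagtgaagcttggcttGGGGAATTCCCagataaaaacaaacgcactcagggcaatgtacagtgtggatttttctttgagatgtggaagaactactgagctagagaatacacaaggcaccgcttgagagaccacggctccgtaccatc
Xcl1 (GRCm38.p6, chr1:164935473-164935772, minus strand): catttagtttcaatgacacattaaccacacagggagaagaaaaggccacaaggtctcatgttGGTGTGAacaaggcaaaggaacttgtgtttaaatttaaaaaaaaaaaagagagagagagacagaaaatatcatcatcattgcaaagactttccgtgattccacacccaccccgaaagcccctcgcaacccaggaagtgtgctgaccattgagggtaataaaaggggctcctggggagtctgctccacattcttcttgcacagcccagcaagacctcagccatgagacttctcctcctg

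Genes that carry the receptor signal inside the cell were read from lists of the pathway. Of 30 signal transduction genes past the minimum, 0 reached 2-fold in either direction on the brightest probe set, where 2.26% of all genes did. Gng2 had a ratio of -0.30 there, and its other probe sets past the minimum ran from -1.29 to -0.45. Of the 30, 12 were above 0 and 18 below, where 49.0% of all genes were below, and the median was -0.02 beside 0.01 for all genes. The inhibitory G protein subunits Gnai2 and Gnai3, which couple to the receptors, were at 6662 and 6366 and at 5462 and 6058 in wild type and miR-125a KO pools, with ratios of -0.07 and 0.15. Subunits of phosphoinositide 3-kinase gamma, the lipid kinase that G proteins switch on in leukocytes, went opposite ways. Pik3cg, its catalytic subunit, was at 1288 and 879, a ratio of -0.54 with -0.71 from its other probe set. Pik3r6, a regulatory subunit, was at 258 and 525, a ratio of 0.98 with a probe-set SD of 0.27 and with 0.68 from its other probe set. Pik3r5, the other regulatory subunit, was at 564 and 815, a ratio of 0.52. Plcb2, a phospholipase of the same receptors, had the lowest ratio of the list, -0.55, at 123 and 78.8.

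RGS proteins end the G protein signal of chemokine receptors. All 9 measured RGS genes were past the minimum, 7 below 0 and 2 above, with a median of -0.12 and none at 2-fold. Rgs3 was at 1228 in wild type and 692 in miR-125a KO cells, a ratio of -0.81 with a probe-set SD of 0.23, and its 3 other probe sets past the minimum had ratios from -1.24 to -0.70. Rgs10 was at 5691 and 3363, a ratio of -0.76 with a probe-set SD of 0.16. These were the 2 RGS genes at least 1.5-fold lower, where 5.77% of all genes were. Rgs14 and Rgs19 had the highest ratios, 0.07 and 0.06, at 1061 and 1111 and at 2972 and 3095. Rgs1, which restrains the response to Cxcl12, was at 16994 and 16003, a ratio of -0.09.

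**Figure D4:**
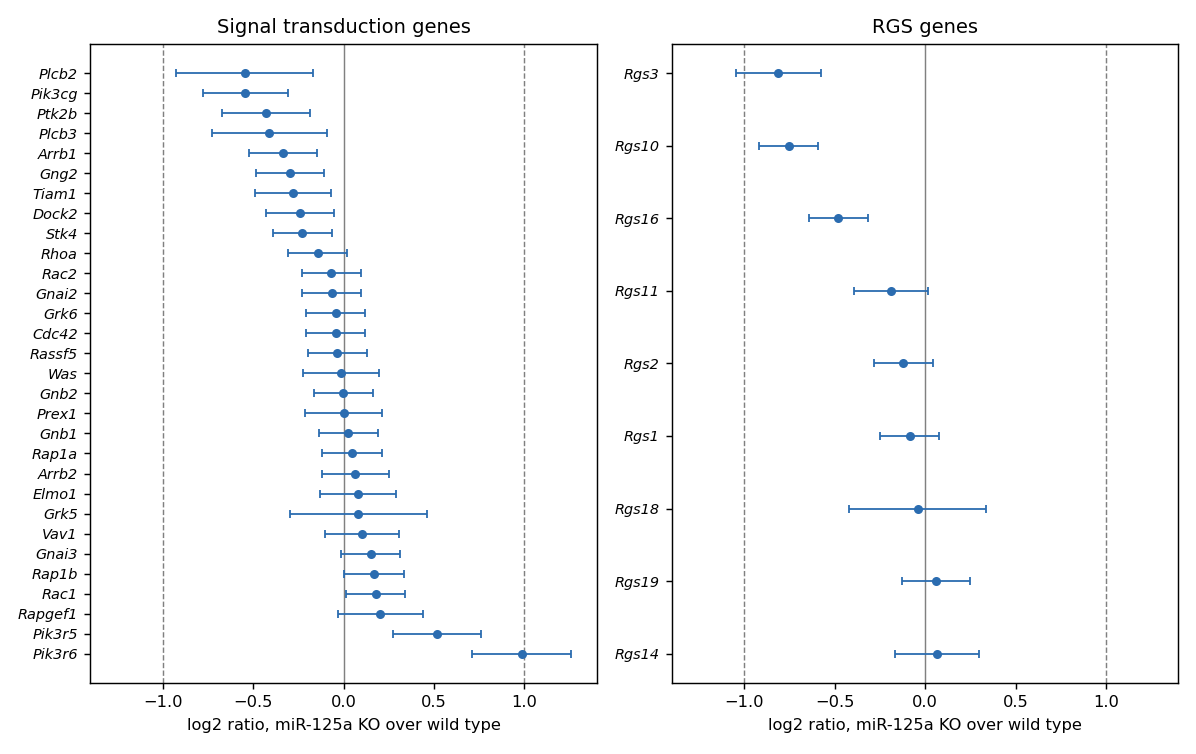
Log2 ratios of miR-125a KO over wild type (horizontal) for 30 signal transduction genes (left) and 9 RGS genes (right) past the minimum, 1 array per genotype, with bars for the probe-set SD and dashed lines at 2-fold. Pik3r6, at 0.98, lies at the far right of its panel and Rgs3 and Rgs10, at -0.81 and -0.76, at the far left of theirs.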

How the data were processed

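The authors deposited log2 values for 45101 probe sets on each of 2 arrays, made with MAS5 per the submitters' processing notes, with no version or detection calls in the sources used here. MAS5 subtracts mismatch signal, so ratios of dim genes vary widely; the lowest value, a linear signal of 1, is a bound. Labelled cRNA was made from 6 ug of RNA, per the labels' protocols. Values were turned to the linear scale with Python 3.11.15, pandas 2.3.3 and numpy 2.4.6, and loess used statsmodels 0.14.6. The platform annotation paired 34945 probe sets with a single gene; all 54 members were found in the RefSeq gene table of GRCm38.p6, with 0 symbols changed. The pseudocount of 16.3 is the 25th percentile of all signals. The probe-set SD came from 5030 genes in 10 groups of mean signal. The ratio and the count at 2-fold were tested on simulated data. The changes put in were well beyond 2-fold and the noise was below the smallest probe-set SD, so smaller folds were not tested.

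The members, lists, thresholds and motifs were chosen with earlier results of these data known. Every member past the minimum was named, as were members below it with 1 array past it and the numbered and atypical receptors. The 2 highest and 2 lowest genes of each pathway list were named too. Gnai2, Gnai3, Rgs1, Ppbp and S1pr1 were named for their roles, Gng2 for its other probe sets, and the marker genes after their values were seen.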

Additional observations from a re-analysis of the deposited data

How the results depend on the processing

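With 3 other array scalings, 2 other pseudocounts, 2 other filters, the mean over probe sets and the omission of probe sets that can match several transcripts, none of the 205 recomputed ratios of the 25 genes moved by more than its probe-set SD. Part of these 205 could not move. The filters leave a ratio as it is, and so does the mean over probe sets for the 20 genes with 1 past the minimum. The omission of probe sets alters a ratio only where it removes the brightest. The sign held for 22 genes and turned in at least 1 setting for Ackr1, Ccr4 and Ccr7, all near 0. No setting read a gene from its second probe set alone. The 22 include Ccl9, Ccr2 and Ccl25, whose probe sets disagreed in sign, so the held sign gives no direction for them. The mean over probe sets left them at 0.004, 0.01 and 0.11. The count of genes at least 1.5-fold lower ran from 5 to 8 over the 9 alternative settings, and that of genes as much higher from 0 to 11. With equal medians, where the median of all genes was 0.05, Ccl1 and Ccl5 were no longer among the lower genes, nor was Ccl5 with quantile or loess scaling or the median signal as pseudocount. Ccl17 was 1.5-fold higher with quantile and loess scaling. The stricter minimum left out Ccl5 and Ccr6, and the omission of probe sets Ccl1 and Ccr6. With no filter 8 were lower and 11 higher. The other scalings moved the share of higher genes among all genes at 2-fold from 47.7% to between 54.8% and 58.5%. With no filter 3 chemokine genes were at least 2-fold higher, Cxcl5, Cxcl12 and Cxcl17, of 54, where 4.44% of all 18193 genes were, and the median of the ligands was 0.36. This setting adds 20 dim ligands, and the probe sets of Cxcl12 disagreed in sign. With a stricter minimum, the 75th percentile of mean signal, which left 11 chemokine genes, the median was -0.38 over these genes and -0.75 over the ligands among them. With the settings of the report, counting at 1.5-fold in place of 2-fold gave 7 lower genes and 0 higher. All other counts at 2-fold and 3-fold were 0. Counts of all genes at 2-fold were 114 higher and 125 lower, and 58 and 57 with the median signal as pseudocount, 163 and 166 with a pseudocount of 1. No paired analysis was possible because each genotype had 1 array.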

Other observations

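Attractant receptors and platelet chemokines outside the name rule were read beside the family. Of 12 such genes measured, 9 were past the minimum, 4 above 0 and 5 below, with a median log2 ratio of -0.05. Cmklr1, the chemerin receptor of myeloid and NK cells, was the 1 at 2-fold or more. It was at 108 in wild type and 29.7 in miR-125a KO cells, a ratio of -1.43 with a probe-set SD of 0.38. Of all genes, 1.18% were at least 2-fold lower. Cmklr1 passed the minimum, which was set on the mean of both arrays, through its wild type signal. Its miR-125a KO signal was below that minimum. Ccrl2, which presents chemerin, had a ratio of -0.23. Pf4 and Ppbp, chemokines of platelet granules, were at 1226 and 1744 and at 501 and 652, with ratios of 0.50 and 0.37. Both are also platelet markers, and of the 4 other platelet markers measured Gp9 and Gp1bb had ratios of 0.61 and 0.54 and Itga2b and Treml1 -0.43 and -0.57. The summed signal of the 6 was 2511 in wild type and 3099 in miR-125a KO cells, and that of the 4 without Pf4 and Ppbp, a choice made after the values were seen, 783 and 704. Gpr15, a receptor of colon homing T cells, was at 205 and 287, a ratio of 0.45. S1pr1, which leads T cells out of lymphoid organs, was at 444 and 424, with -0.06.

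Of 8 neutrophil markers 0 passed the minimum. Of 8 mast cell and basophil markers 4 passed it, and their summed signal in miR-125a KO cells was 0.699 times that in wild type. Kit, the stem cell factor receptor, made up most of this difference, at 643 in wild type and 285 in miR-125a KO cells, a ratio of -1.13 with -1.29 from its other probe set, and without it, a choice made after the values were seen, the sum was 0.984 times that in wild type. Cpa3, Fcer1a and Gata2 had ratios of -0.49, -0.03 and 0.44. Of 8 stromal and endothelial markers 2 passed, Pdpn at 1124 and 1339 and Pecam1 at 623 and 451, and the sum of the 8 was 1.01 times that in wild type.

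Probe sets that name several chemokine genes were not counted. The 2 that name Ccl27a, Ccl27b and related genes were at 133 and 171 and at 105 and 94.5 in wild type and miR-125a KO pools, with log2 ratios of 0.33 and -0.13, so they disagree in sign. The probe sets naming Ccl21 and Ccl19 genes, the ligands of Ccr7, had signals from 5.06 to 7.15.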
